A study of Mus musculus with 12 samples.

Results

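A set of 10 genes, *Arc*, *Homer1*, *Ier2*, *Ier3*, *Ier5*, *Btg2*, *Arl5b*, *Gadd45b*, *Maff* and *Jrk*, was followed through all 12 libraries of the series, out of 16234 genes in the raw count table. The genes were taken by symbol, and they had been selected on measured values of these libraries. *Arc*, *Homer1*, *Ier2* and *Arl5b* were known to be higher after stimulation in wild-type cells, and *Jrk* was known to be lower, within a list of target genes of the ternary complex factors that the study had used. *Ier3*, *Ier5*, *Btg2*, *Gadd45b* and *Maff* were added as immediate-early genes of other kinds, with earlier results on the wild-type response in view. The wild-type response is therefore given as a description without a test.

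The cells were mast cells grown from the bone marrow of C57BL/6N mice aged 6 to 12 weeks, of both sexes (BMMCs, bone marrow-derived mast cells). They came from conventional *Elk4* knockout mice (KO), from mice labelled heterozygous (HZ) and from littermate wild-type mice (WT). Culture in IL-3 and SCF lasted 4 to 8 weeks, after which over 80% of the cells carried both CD117 and FcεRI. The labels name no treatment for unstimulated cells and IgE-DNP/HSA stimulation for the others. The study's RT-qPCR methods give anti-DNP IgE (0.5 µg/ml) overnight and then the antigen DNP-HSA (100 ng/ml) for 1 h. Its RNA-seq methods repeat no dose or time, and these values are taken to hold here and below. Unstimulated cells are not said to have received IgE, so the comparison may cover sensitization and antigen together. There were 6 groups with 2 libraries each, and the labels do not say whether those 2 came from separate mice or cultures, so that every p-value below measures only the spread between these libraries.

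Immediate-early genes are switched on within minutes of a signal, by transcription factors that are already present in the cell and need no new protein synthesis. In mast cells, antigen that crosslinks IgE on FcεRI starts calcium and MAP kinase signalling, which reaches serum response factor, its ternary complex factor partners (ELK1, ELK3 and ELK4), CREB, NFAT and NF-κB. Most work on such genes concerns transcription factors such as FOS and EGR1, but many encode other proteins. *Arc* and *Homer1* encode scaffold proteins best known from synapses. *Ier2*, *Ier3* and *Ier5* encode small proteins named after their early response, *Btg2* and *Gadd45b* encode regulators of growth arrest and stress signalling, *Maff* encodes a small MAF transcription factor, and *Arl5b* encodes a small GTPase of the trans-Golgi network. *Jrk* encodes a nuclear DNA-binding protein related to transposases and to the centromere protein CENPB.

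The libraries held between 29697958 and 35531667 counts, and the 10 genes took between 0.0654% and 0.0860% of all counts in unstimulated libraries and between 0.441% and 0.516% in stimulated ones. All 10 of the mast cell markers examined (*Kit*, *Fcer1a* and *Cpa3* among them) were expressed in every group. The targeted gene *Elk4* did not follow the labels. Its level was 75.8 ± 3.60 CPM in unstimulated WT libraries, 89.6 ± 5.10 CPM in unstimulated HZ and 66.6 ± 4.37 CPM in unstimulated KO (mean ± SD, n = 2, here and below; CPM, counts scaled to library size by edgeR's trimmed mean of M values, TMM). After stimulation *Elk4* stood at 72.6 ± 7.91 CPM, 64.4 ± 1.05 CPM and 67.8 ± 0.978 CPM. The deleted part of the gene is not given in the sources used here, so these gene-level counts cannot check the labels, and HZ and KO below mean the libraries labelled so. The study itself reports a western blot of WT, HZ and KO BMMCs as evidence of the deletion at the protein level.

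Sequences just upstream of the genes are shown for 5 members whose promoters held letters of a searched motif. RefSeq promoter sequences (build GRCm38.p6, 250 bases before to 50 after a start) were at hand for 7 of the 10 genes, *Btg2*, *Ier5*, *Arl5b*, *Gadd45b*, *Homer1* (2 starts), *Maff* (3 starts) and *Ier3*. The counts were made on another build, GRCm39, and no count is tied to these coordinates. Capitals mark matches on either strand to the cAMP response element (CRE, TGACGTCA, bound by CREB and ATF proteins), its core TGACG, the ETS core CCGGAA, the EGR site GCGNGGGCG or the TATA box TATAAA. The CRE contains its core on both strands. Each line gives the 250 bases before the start, 5′ to 3′ on the strand of the gene.

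Btg2 (chr1:134079156-134079405, minus strand): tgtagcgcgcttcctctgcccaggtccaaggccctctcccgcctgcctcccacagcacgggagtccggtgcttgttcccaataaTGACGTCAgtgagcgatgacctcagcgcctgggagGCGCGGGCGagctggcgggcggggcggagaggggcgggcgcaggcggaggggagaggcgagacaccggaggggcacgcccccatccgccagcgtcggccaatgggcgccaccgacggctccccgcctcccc
Arl5b (chr2:15055070-15055319, plus strand): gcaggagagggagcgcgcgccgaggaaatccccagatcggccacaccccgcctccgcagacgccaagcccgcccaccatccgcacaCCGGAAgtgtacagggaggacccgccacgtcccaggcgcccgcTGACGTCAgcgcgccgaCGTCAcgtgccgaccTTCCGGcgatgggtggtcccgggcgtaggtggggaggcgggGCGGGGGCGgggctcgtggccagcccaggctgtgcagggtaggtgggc
Maff, its second start (chr15:79347270-79347519, plus strand): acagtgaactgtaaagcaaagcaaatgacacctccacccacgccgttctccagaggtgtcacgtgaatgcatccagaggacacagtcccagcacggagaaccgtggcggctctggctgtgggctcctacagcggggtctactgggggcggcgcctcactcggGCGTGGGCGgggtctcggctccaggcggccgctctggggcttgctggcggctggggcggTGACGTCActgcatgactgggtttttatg
Homer1, its first start (chr13:93303507-93303756, plus strand): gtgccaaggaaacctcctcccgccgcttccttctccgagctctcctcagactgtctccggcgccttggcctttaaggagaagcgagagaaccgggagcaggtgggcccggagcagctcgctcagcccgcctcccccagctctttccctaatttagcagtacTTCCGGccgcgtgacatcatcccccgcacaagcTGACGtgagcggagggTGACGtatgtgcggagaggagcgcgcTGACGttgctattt
Gadd45b (chr10:80929841-80930090, plus strand): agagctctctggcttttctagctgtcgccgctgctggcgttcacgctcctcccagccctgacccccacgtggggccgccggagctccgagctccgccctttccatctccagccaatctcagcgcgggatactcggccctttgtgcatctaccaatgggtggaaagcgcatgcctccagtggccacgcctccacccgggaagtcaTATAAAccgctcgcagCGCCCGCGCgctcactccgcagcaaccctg

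A full CRE stood in the promoters of *Btg2* (166 to 159 bases before the start), *Arl5b* (121 to 114 bases) and *Maff* (29 to 22 bases), 3 of the 7 genes. It stood in 1.79% of all 32851 promoters of this length and in 3.53% of the 9821 tested genes with a promoter. The core TGACG stood in 4 of the 7, with 3 copies at *Homer1*, in 20.8% of all promoters and in 35.3% of the tested genes. The ETS core was found at *Arl5b*, *Homer1* and *Maff*, at the last only downstream of the start (14.9% of all promoters, 31.9% of tested genes), the EGR site at *Arl5b*, *Btg2*, *Gadd45b* and *Maff* (5.55% and 12.1%), and the TATA box at *Gadd45b* (13.6% and 8.57%). Some genes, *Maff* and *Homer1* among them, have several promoters, each of which could hold a match. Neither the CArG box, the binding site of serum response factor (1.63% of all promoters), nor the AP-1 site TGANTCA (7.81%) was matched in any of the 7. *Ier3* and *Ier5* held no match to any of these letters in the window. These matches are descriptions of letters in a window and no evidence of binding.

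Per length, in the deposited FPKM values (fragments scaled to gene length and library size), the 10 genes spanned a wide range of levels, and *Ier3*, *Ier2* and *Ier5* led in this order in all 6 groups. In unstimulated WT cells *Ier3* stood at 382 FPKM, *Ier2* at 133, *Ier5* at 34.5 and *Arl5b* at 12.2. Below them came *Gadd45b* at 5.27 FPKM, *Btg2* at 2.93, *Maff* at 2.21, *Homer1* at 1.27, *Jrk* at 0.645 and *Arc* at 0.0653. The libraries of neighbours in this order overlapped only between *Btg2* and *Maff*. After stimulation of WT cells the order changed below *Ier5*: *Btg2* reached 79.5 FPKM and passed *Arl5b* at 66.0 and *Gadd45b* at 40.9. In stimulated KO cells *Arl5b*, at 102 FPKM, and *Gadd45b*, at 51.5, stood above *Btg2*, at 42.1. *Arc* and *Jrk* had the lowest means in every group. *Jrk* was above *Arc* before stimulation and below it after stimulation of WT and HZ cells, and the libraries of the pair overlapped in stimulated KO cells.

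**Figure D1:**
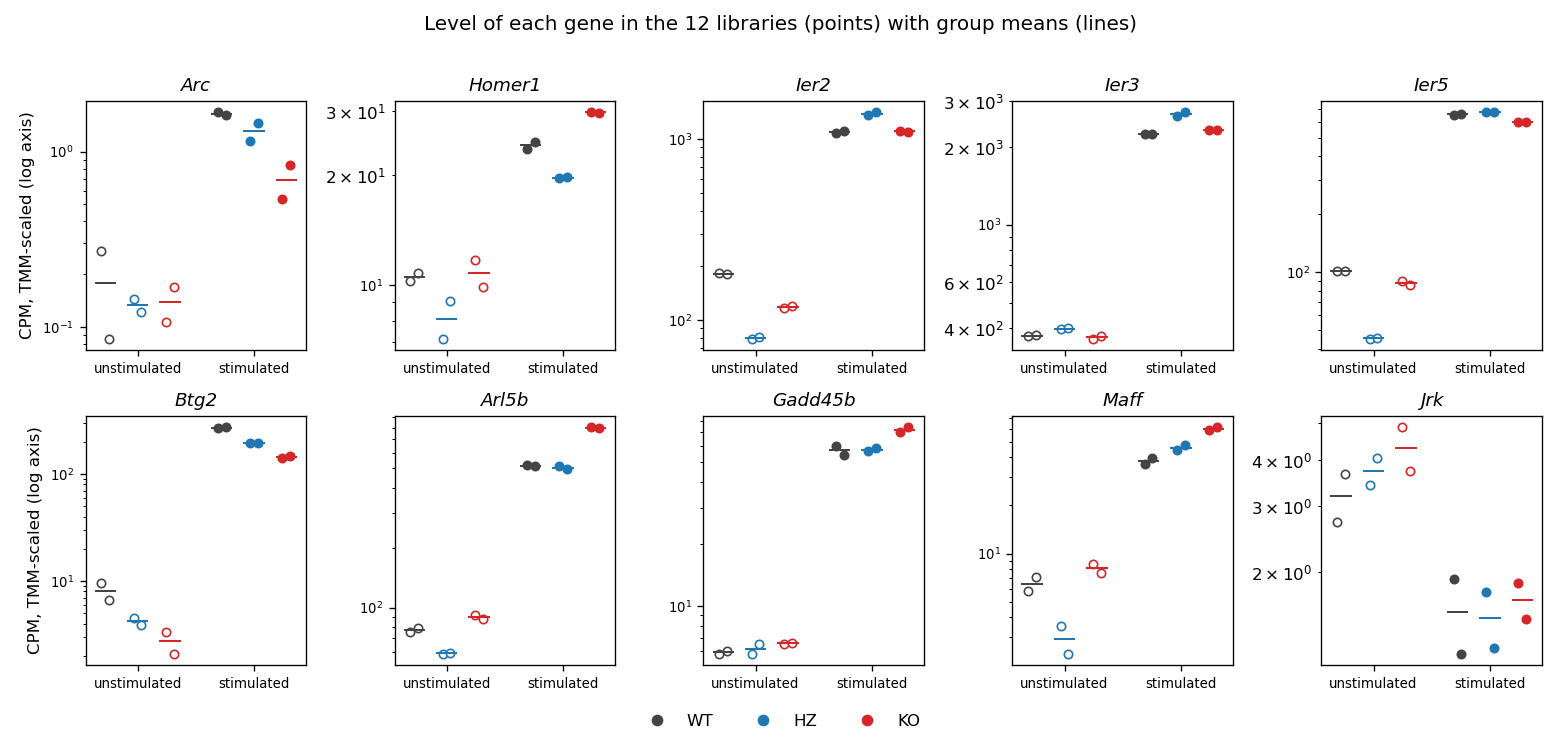
Level of each of the 10 genes in all 12 libraries, in TMM-scaled CPM on log axes; each panel has its own axis, open points are unstimulated and filled points stimulated libraries, colours are genotypes and lines are means of 2 libraries. For 9 genes every stimulated library lies above every unstimulated one, and for *Jrk* every stimulated library lies below.

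*Arc* (NCBI gene 11838) was close to the limit of detection. Its raw counts were 9 and 3 in unstimulated WT libraries, 5 and 4 in HZ and 4 and 6 in KO, and 50 and 48, 38 and 43 and 15 and 24 after stimulation. It passed the filter on low counts through the 6 stimulated libraries only, whereas the other 9 genes passed in all 12. The stimulated level was highest in WT and lowest in KO libraries, without overlap between the genotypes.

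*Homer1* (NCBI gene 26556) was measured at 10.3 and 10.8 CPM in unstimulated WT libraries, 7.14 and 9.04 CPM in HZ and 11.8 and 9.86 CPM in KO. After stimulation the values were 23.7 and 24.7 CPM, 19.7 and 19.8 CPM and 29.8 and 29.7 CPM. KO libraries were highest and HZ libraries lowest after stimulation. *Homer1* has a short isoform that is the early-response form in neurons, and gene-level counts do not separate it from the long isoforms.

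*Ier2* (NCBI gene 15936) stood at 183 and 179 CPM in unstimulated WT libraries, 79.0 and 80.1 CPM in HZ and 117 and 119.8 CPM in KO, 3 separate levels. After stimulation it reached 1079 and 1114 CPM in WT, 1354 and 1409 CPM in HZ and 1111 and 1091 CPM in KO. The genotype with the lowest unstimulated level thus had the highest stimulated level, and WT and KO libraries overlapped after stimulation.

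*Ier3* (NCBI gene 15937), whose product acts on survival and ERK signalling, was the most abundant of the 10 in every group. Its values were 371 and 374 CPM in unstimulated WT, 397 and 398 CPM in HZ and 364 and 374 CPM in KO libraries. They became 2238 and 2239 CPM, 2616 and 2717 CPM and 2311 and 2311 CPM after stimulation, highest in HZ.

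*Ier5* (NCBI gene 15939), whose product regulates heat shock factor 1, gave 101 and 101 CPM in unstimulated WT libraries, 45.1 and 45.3 CPM in HZ and 89.4 and 85.8 CPM in KO. Stimulated libraries gave 657 and 666 CPM, 677 and 679 CPM and 601 and 603 CPM. The wide gap between unstimulated HZ libraries and the others was narrow after stimulation.

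*Btg2* (NCBI gene 12227), an antiproliferative cofactor that recruits the deadenylase complex to mRNA, was measured at 9.48 and 6.69 CPM in unstimulated WT, 4.49 and 3.91 CPM in HZ and 3.36 and 2.09 CPM in KO libraries. The stimulated libraries stood at 269 and 274 CPM, 194 and 195 CPM and 142 and 146 CPM. It was the gene with the largest fold of the 10 in each genotype, and WT libraries were highest and KO libraries lowest in both states without overlap.

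*Gadd45b* (NCBI gene 17873), a stress sensor that activates p38 and JNK kinase signalling, stood at 5.86 and 6.06 CPM in unstimulated WT, 5.85 and 6.52 CPM in HZ and 6.56 and 6.60 CPM in KO libraries. Stimulated libraries stood at 60.0 and 54.6 CPM, 56.6 and 58.7 CPM and 70.5 and 74.2 CPM. HZ and WT libraries overlapped in both states, and KO libraries were above both groups after stimulation.

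*Maff* (NCBI gene 17133), which lacks a transactivation domain and acts in dimers with CNC and BACH proteins, was at 5.83 and 7.15 CPM in unstimulated WT, 3.51 and 2.37 CPM in HZ and 8.67 and 7.55 CPM in KO libraries. After stimulation it was at 36.4 and 39.8 CPM, 44.2 and 47.5 CPM and 59.2 and 61.6 CPM. HZ libraries were lowest before stimulation and lay between WT and KO libraries afterwards.

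*Arl5b* (NCBI gene 75869), which acts in transport from endosomes to the trans-Golgi network, was at 75.1 and 78.6 CPM in unstimulated WT, 58.6 and 59.4 CPM in HZ and 91.5 and 87.5 CPM in KO libraries. Stimulated values were 518 and 513 CPM, 513 and 497 CPM and 804 and 799 CPM. KO libraries were highest in both states, and WT and HZ libraries overlapped after stimulation.

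*Jrk* (NCBI gene 16469) had low counts and the reverse direction. Unstimulated libraries held 2.72 and 3.66 CPM in WT, 3.43 and 4.03 CPM in HZ and 4.88 and 3.72 CPM in KO, and stimulated libraries 1.92 and 1.21 CPM, 1.77 and 1.25 CPM and 1.87 and 1.49 CPM. Genotypes overlapped in each state, except for unstimulated KO against WT.

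The first comparison asked how much each gene changed after stimulation. In bulk RNA, fewer cells with a transcript and less of it per cell cannot be told apart. In WT cells, the contrast that had chosen the genes, *Btg2* was 33.7-fold higher in stimulated libraries, *Gadd45b* 9.61-fold, *Arc* 9.13-fold and *Arl5b* 6.71-fold. *Ier5* was 6.57-fold higher, *Ier2* 6.07-fold, *Ier3* 6.01-fold, *Maff* 5.86-fold and *Homer1* 2.29-fold, and *Jrk* was 2.04-fold lower. The log2 fold change of *Jrk* ran from -1.40 to -0.73 as single WT libraries were left out, and was under 2-fold without unstimulated WT replicate 2 or stimulated WT replicate 2, and that of *Arc* moved from 3.19 to 4.20 without unstimulated WT replicate 1. A gene counted as changed at an adjusted p below 0.05 and a change of at least 2-fold. By these thresholds 3.71% of 12208 tested genes were higher in stimulated WT libraries and 3.06% lower, beside 9 and 1 of the 10, a result of how they were chosen.

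The responses of HZ and KO cells came from other libraries, but the genes were chosen with the whole series in view, so their counts beside those of all genes are a description. The adjusted p-values given below for single genes in HZ and KO are not free of that choice either. *Arc*, which passed the filter on low counts through stimulated libraries alone, is left out of them. Of the other 9 genes, 8 rose in HZ cells and *Jrk* fell, where 7.02% of all tested genes were higher and 7.28% lower. In KO cells the same 8 rose and *Jrk* fell, where 3.73% were higher and 2.88% lower. The 8 log2 fold changes ran from 1.29 (*Homer1*) to 5.53 (*Btg2*) in HZ and from 1.46 to 5.71, for the same genes, in KO. The median over all tested genes was -0.0048 and -0.0067. Scaled by library totals in place of TMM, those medians of all genes moved to -0.24 and -0.30 (WT, -0.32 from -0.013), and all 10 genes kept their direction. In HZ and KO all 9 tested genes also kept their calls, and in WT *Homer1* was then under 2-fold. The split of all genes then moved from 857 higher and 889 lower to 604 and 1351 in HZ, from 455 and 352 to 354 and 721 in KO and from 453 and 373 to 341 and 848 in WT.

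*Btg2* rose 46.2-fold in HZ (log2 fold change 5.53 ± 0.09, SE; edgeR quasi-likelihood test with Benjamini-Hochberg adjustment, adjusted p = 8.27e-44) and 52.5-fold in KO (5.71 ± 0.09; edgeR adjusted p = 5.53e-43). *Ier2* rose 17.4-fold in HZ (4.12 ± 0.03; edgeR adjusted p = 2.42e-56) and 9.31-fold in KO (3.22 ± 0.03; edgeR adjusted p = 1.08e-52). *Maff* and *Ier5* rose by 3.96 and 3.91 on the log2 scale in HZ, above their 2.89 and 2.78 in KO.

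*Ier3*, *Arl5b* and *Gadd45b* rose 6.71-fold, 8.56-fold and 9.32-fold in HZ and 6.27-fold, 8.95-fold and 10.99-fold in KO. Of the 3 genes whose promoters hold the full CRE, *Btg2* had the largest fold and *Maff* and *Arl5b* lay among the other genes.

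*Homer1* rose least, 2.44-fold in HZ (edgeR adjusted p = 9.63e-14) and 2.75-fold in KO (edgeR adjusted p = 4.56e-16). *Jrk* fell 2.45-fold in HZ (log2 fold change -1.30 ± 0.29; edgeR adjusted p = 1.39e-04) and 2.56-fold in KO (-1.36 ± 0.29; edgeR adjusted p = 1.27e-04). In limma on log2(FPKM + 1), a scale that understates changes of low genes, both were under 2-fold. *Homer1* was then at 0.61 in HZ and 0.77 in KO, and *Jrk* at -0.47 and -0.54.

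*Arc* was 9.57-fold higher in stimulated than in unstimulated HZ libraries and 4.90-fold higher in KO (log2 fold change 2.29 ± 0.70). A gene that enters through the group where it is high had to differ, so these values have no test. The KO value was 2.00 without unstimulated KO replicate 1 and 1.94 without stimulated KO replicate 2.

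**Figure D2:**
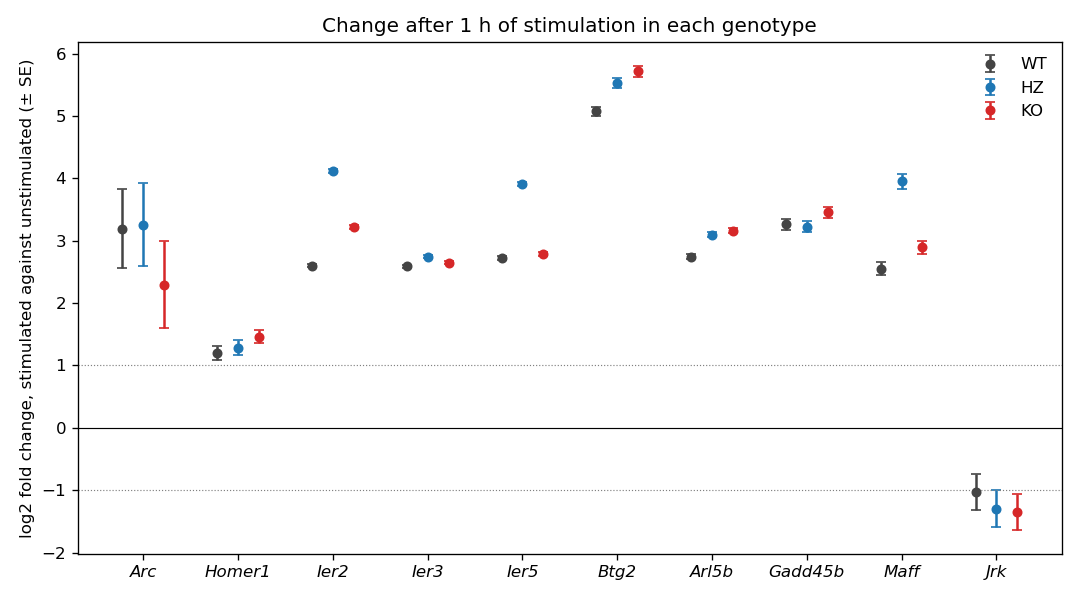
Change of each gene after 1 h of stimulation in WT, HZ and KO cells, 2 libraries a group. Points are log2 fold changes from edgeR, and bars are standard errors derived from its F test. Dotted lines mark 2-fold. *Ier2*, *Ier5* and *Maff* have their largest change in HZ cells, and *Arc* and *Jrk*, with the lowest counts, have the widest errors.

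In gene structure, 5 of the 10 members had at most 2 exons in their longest coding transcript (GENCODE vM21), and *Ier2* and *Ier5* had 1. Among the 11739 tested genes with such a transcript the share with at most 2 exons was 6.66% and the median was 9 exons. In the 3′ untranslated region, 6 of 10 held 2 or more copies of ATTTA, the core of AU-rich decay elements, as did 50% of those genes. The nonamer TTATTTATT, a stronger form of the element, was found in *Arl5b* and *Maff* and in 8.02% of those genes. The first nonamer of each, in capitals within 29 bases of transcript sequence 5′ to 3′, is shown because these are the only ones of the 10.

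Arl5b: ccggcatgtaTTATTTATTtatccagcac
Maff: ttccacactcTTATTTATTgcacgaatct

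*Arc* and *Jrk*, which moved in opposite directions, lie close together on chromosome 15, with 1 annotated RefSeq gene between them.

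The second comparison asked whether the genes differed between genotypes before stimulation. In HZ cells the 3 genes past the thresholds were all lower than in WT. *Ier2* (2.27-fold lower; log2 fold change -1.18 ± 0.03; edgeR adjusted p = 1.08e-32), *Ier5* (2.23-fold lower; -1.16 ± 0.04; edgeR adjusted p = 1.13e-29) and *Maff* (2.20-fold lower; -1.14 ± 0.15; edgeR adjusted p = 8.38e-09) passed. Thus 3 of 10 were lower and 0 higher, against 5.32% and 3.83% of all tested genes. *Maff* was no longer 2-fold lower without unstimulated WT replicate 2 (-0.98) or HZ replicate 2 (-0.89).

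*Btg2* was lower in unstimulated HZ libraries by just under 2-fold (-0.94 ± 0.13; edgeR adjusted p = 2.96e-08) and passed that threshold without WT replicate 2 (-1.18) or HZ replicate 1 (-1.04). With other single libraries left out, its log2 fold change came as close to 0 as -0.67. *Arl5b* (-0.38; edgeR adjusted p = 9.40e-12) and *Homer1* (-0.38; edgeR adjusted p = 0.00647) were lower by smaller amounts, and *Ier3* was higher by 0.10 (edgeR adjusted p = 0.00104). *Homer1* ran from -0.57 to -0.22 as single libraries were left out. *Ier3* did not stay below an adjusted p of 0.05 in every count-based alternative. At the adjusted p alone 7 of the 10 differed, where 51.4% of all tested genes did. *Gadd45b* (0.05 ± 0.12), *Jrk* (0.22 ± 0.27) and *Arc* (-0.40 ± 0.84) did not pass.

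In unstimulated KO libraries *Btg2* was 2.94-fold lower than in WT (-1.55 ± 0.14; edgeR adjusted p = 3.06e-13), the only 1 of 10 past the thresholds, against 4.87% of all genes lower and 2.64% higher. *Ier2* was 1.53-fold lower (-0.61 ± 0.03; edgeR adjusted p = 6.27e-22), which is short of 2-fold, and *Ier5* was lower by 1.15-fold (edgeR adjusted p = 3.51e-06). *Arl5b* (0.22; edgeR adjusted p = 2.22e-06) and *Maff* (0.32; edgeR adjusted p = 0.03) were slightly higher. By the adjusted p alone 5 of 10 differed, against 44.6% of all genes.

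Against HZ libraries, unstimulated KO libraries had 2.75-fold more *Maff* (1.46 ± 0.14; edgeR adjusted p = 5.00e-12), 1 of 10 higher and 0 lower, where 1.29% and 2.06% of all genes were. *Ier5* was 1.94-fold higher (edgeR adjusted p = 9.27e-26), *Arl5b* 1.52-fold (edgeR adjusted p = 3.67e-18) and *Ier2* 1.49-fold (edgeR adjusted p = 1.29e-19), all under 2-fold. *Btg2* was lower by 1.54-fold (edgeR adjusted p = 0.00129). As single libraries were left out, its log2 fold change ran from -1.01 to -0.32, and it was past 2-fold only without unstimulated KO replicate 1. The adjusted p alone called 7 of the 10, against 45.2% of all genes.

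Some markers of other cells differed with genotype too. The summed level of 8 macrophage and monocyte markers ranged from 8.48 to 12.02 CPM in WT libraries and from 36.5 to 76.0 CPM in HZ and KO libraries. *F13a1*, which encodes a subunit of coagulation factor XIII, alone went from 1.33 CPM in unstimulated WT to 56.6 CPM in HZ and 59.2 CPM in KO. It made up most of the sum in unstimulated HZ and KO libraries. *Mrc1* was at 3 counts or fewer in every library, as were *C1qa* and *C1qb* in all HZ and KO libraries. *Csf1r* was so in all HZ and in unstimulated KO libraries. In unstimulated WT *Csf1r*, *C1qa* and *C1qb* each exceeded 3 counts in either or both libraries. The sum of 6 erythroid and megakaryocyte markers was highest in unstimulated HZ libraries (2414 to 2422 CPM, against 1511 to 1767 CPM in all other groups), with *Hbb-bs* at 3 counts or fewer throughout. That of 4 basophil markers ran from 465 to 674 CPM and was also highest in unstimulated HZ libraries. So was the sum of the 10 mast cell markers (55814 to 57250.5 CPM, against 46581 to 51795 CPM in all other groups). Markers of neutrophils, T cells, B cells and dendritic cells summed to at most 0.431 CPM in any library. The part of such cells in the differences between genotypes was not tested.

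The third comparison set the genotypes side by side after stimulation, with the study's narrower threshold of a fold of at least 1.5 or at most 0.66. The differences of *Ier2* and *Ier5* seen before stimulation were then small or of the other sign. In KO libraries *Btg2* was 1.88-fold lower than in WT (-0.91 ± 0.05; edgeR adjusted p = 4.18e-19), and *Maff* (1.59-fold; 0.67 ± 0.09; edgeR adjusted p = 1.39e-08) and *Arl5b* (1.55-fold; 0.64 ± 0.03; edgeR adjusted p = 1.31e-22) were higher. That made 2 of 10 higher and 1 lower, against 5.44% and 7.22% of all tested genes.

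*Gadd45b* (0.34; edgeR adjusted p = 9.56e-05) and *Homer1* (0.30; edgeR adjusted p = 0.0155) were higher in KO by less than the threshold, and *Ier5* was lower (-0.14; edgeR adjusted p = 1.44e-04). *Ier2* (0.01 ± 0.03; edgeR adjusted p = 0.885) and *Ier3* (0.05 ± 0.02; edgeR adjusted p = 0.113) did not pass. *Arc*, at 2.39-fold less in KO, missed the threshold (-1.26 ± 0.54; edgeR adjusted p = 0.0586). It passed when only the 2 groups compared were fitted (-1.27; edgeR adjusted p = 0.0222) and in no other alternative. As single libraries were left out, the log2 fold change of *Arc* ran from -1.605 to -0.98. At the adjusted p alone 6 of 10 differed, against 40.4% of all genes.

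Between stimulated HZ and WT libraries 0 of 10 passed, where 3.56% of all genes were higher and 4.33% lower in HZ. edgeR gave 5 of the 10 at an unadjusted p below 0.05, the same number at the adjusted p alone (34.9% of all genes), and DESeq2 and limma also called 0. Those 5 were *Btg2*, lower by 1.39-fold (edgeR adjusted p = 3.27e-10), *Homer1*, lower by 1.23-fold (edgeR adjusted p = 0.024), and *Ier2*, *Maff* and *Ier3*, higher by 0.33, 0.27 and 0.25 on the log2 scale. *Btg2* and *Maff* did not stay below an adjusted p of 0.05 in every count-based alternative that kept all libraries of the groups compared. Their log2 fold changes there ran from -0.50 to -0.45 and from 0.25 to 0.29. As single libraries were left out, *Maff* ran from 0.21 to 0.335 and *Homer1* from -0.32 to -0.26. The log2 fold change of *Ier5* was 0.03 ± 0.03 (edgeR adjusted p = 0.382), after -1.16 before stimulation.

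Between stimulated KO and HZ libraries *Arl5b* (1.59-fold; 0.67 ± 0.03; edgeR adjusted p = 2.20e-22) and *Homer1* (1.51-fold; 0.59 ± 0.10; edgeR adjusted p = 1.07e-05) were higher in KO, 2 of 10 higher and 0 lower against 1.81% and 3.51% of all genes. *Homer1* stood just past the threshold, and fell short of it when library totals replaced TMM (0.56) or in limma on FPKM. By the adjusted p alone 8 of the 10 differed, 4 in each direction, against 24.9% of all genes. *Btg2*, lower in KO, did not stay below that limit in every count-based alternative. Comparisons of HZ and of KO with WT share the WT libraries, and those with HZ share the HZ libraries, so that their values are given side by side and not as independent results.

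**Figure D3:**
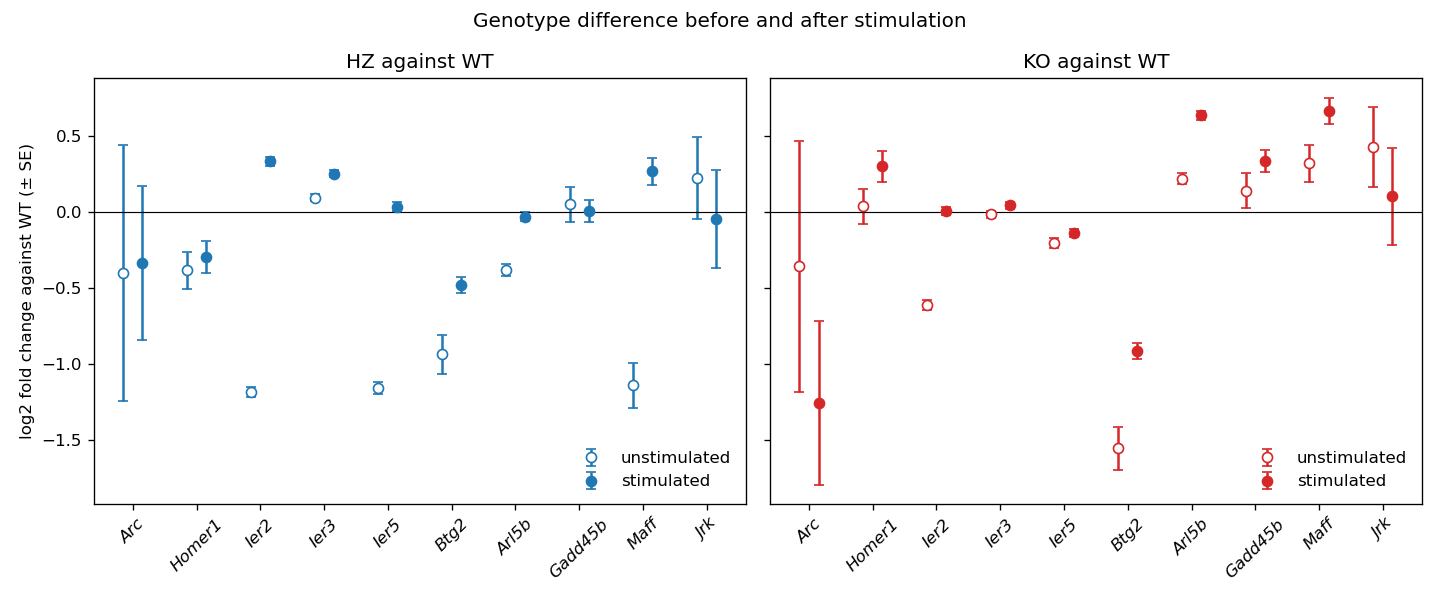
Difference of HZ cells (left) and KO cells (right) from WT cells before stimulation (open points) and after it (filled points), 2 libraries a group. Values are log2 fold changes from edgeR, with standard errors derived from its F test. In HZ cells *Ier2*, *Ier5* and *Maff* lie near -1.2 before stimulation and between 0 and 0.4 after it, and in KO cells *Btg2* lies below 0 in both states.

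The fourth comparison set the responses of the genotypes against each other, as the stimulated difference between genotypes minus the unstimulated one. Against WT it contains the WT response by which genes had been chosen, so those values are a description without a test. By an adjusted p below 0.05 and no minimum size, 6 of 10 genes had a larger log2 change in HZ than in WT and 0 a smaller one, beside 19.9% and 18.6% of all tested genes. With library totals 3120 of all genes had a larger and 1721 a smaller change, in place of 2429 and 2276, and the number among the 10 was again 6. Nothing is read from these counts.

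The largest difference between HZ and WT was that of *Ier2*, 1.52 ± 0.04 on the log2 scale, made of 0.33 after stimulation and -1.18 before. *Maff* followed with 1.41 ± 0.17, made of 0.27 and -1.14, and *Ier5* with 1.19 ± 0.05, made of 0.03 and -1.16. For all 3 genes the larger part lay in the unstimulated libraries. The values of *Btg2*, *Arl5b* and *Ier3* were 0.46, 0.35 and 0.16, and that of *Btg2* was 0.19 without unstimulated WT replicate 1.

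Between KO and WT 3 of 10 had a larger change and 0 a smaller one, beside 5.44% and 3.83% of all genes. They were *Ier2* (0.62 ± 0.04), *Btg2* (0.64 ± 0.15) and *Arl5b* (0.42 ± 0.05). For *Ier2* the stimulated part was 0.01 and the unstimulated part -0.61. *Btg2* was lower in KO in both states, by -0.91 after stimulation and -1.55 before, from unstimulated counts of 314 and 234 in WT and 126 and 74 in KO libraries. Its difference was 0.37 without unstimulated WT replicate 1 and 0.35 without unstimulated KO replicate 2. *Arl5b* was higher in KO in both states, by 0.64 after stimulation and 0.22 before.

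The comparison of KO with HZ does not contain the WT libraries. In it 4 of 10 had a smaller response and 0 a larger one, against 21.3% and 20.2% of all genes. *Ier5* (-1.13 ± 0.05; edgeR adjusted p = 1.88e-24), *Maff* (-1.06 ± 0.17; edgeR adjusted p = 9.09e-07) and *Ier2* (-0.90 ± 0.04; edgeR adjusted p = 1.47e-22) differed most. *Ier3* differed by -0.10 (edgeR adjusted p = 0.0183), a call lost without any of 3 libraries: stimulated HZ replicate 2 (edgeR adjusted p = 0.139), unstimulated KO replicate 2 (edgeR adjusted p = 0.0991) and stimulated KO replicate 1 (edgeR adjusted p = 0.0531). Stimulated levels of *Ier5* were within 1.13-fold of each other in the 2 genotypes, and unstimulated levels differed by 1.94-fold.

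A list of 46 other immediate-early genes, of which 45 were tested, was set beside the 10. After stimulation 38 were higher and 1 lower in HZ, beside 7.02% and 7.28% of all genes. In KO 39 were higher and 1 lower, beside 3.73% and 2.88%. The lower gene was *Klf10*, a growth factor-responsive zinc finger repressor. Before stimulation 22 were lower and 2 higher in HZ than in WT, beside 5.32% and 3.83% of all genes, with a median log2 fold change of -1.10, where that of the 10 was -0.39 and that of all genes 0.0018. The lowest against WT were *Egr4*, from 413 and 355 counts in WT to 1 and 9 in HZ, *Egr2* (-3.56; edgeR adjusted p = 1.37e-50) and *Nr4a1* (-3.36; edgeR adjusted p = 5.13e-54), which encode transcription factors, and the 2 higher genes were *Dusp2* and *Nfkbia*, feedback inhibitors of MAP kinases and NF-κB.

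In unstimulated KO against WT 12 of the 45 were lower and 2 higher (median -0.38, against 0.01 for the 10). Of all genes 4.87% were lower and 2.64% higher. After stimulation 6 were higher and 6 lower in HZ, beside 3.56% and 4.33% of all genes, with a median of 0.00. In KO 9 were higher and 7 lower, beside 5.44% and 7.22%, with a median of 0.04. The response was larger than in WT for 37 of the 45 in HZ and smaller for 3, beside 19.9% and 18.6% of all genes. It was larger for 31 in KO and smaller for 2, beside 5.44% and 3.83%. These response differences contain the WT response, and the list was chosen with earlier results known, so the counts are a description. *Ier2*, *Ier5* and *Maff* thus shared their lower unstimulated level in HZ with 22 of the 45, and the other 7 genes did not pass the same thresholds.

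**Figure D4:**
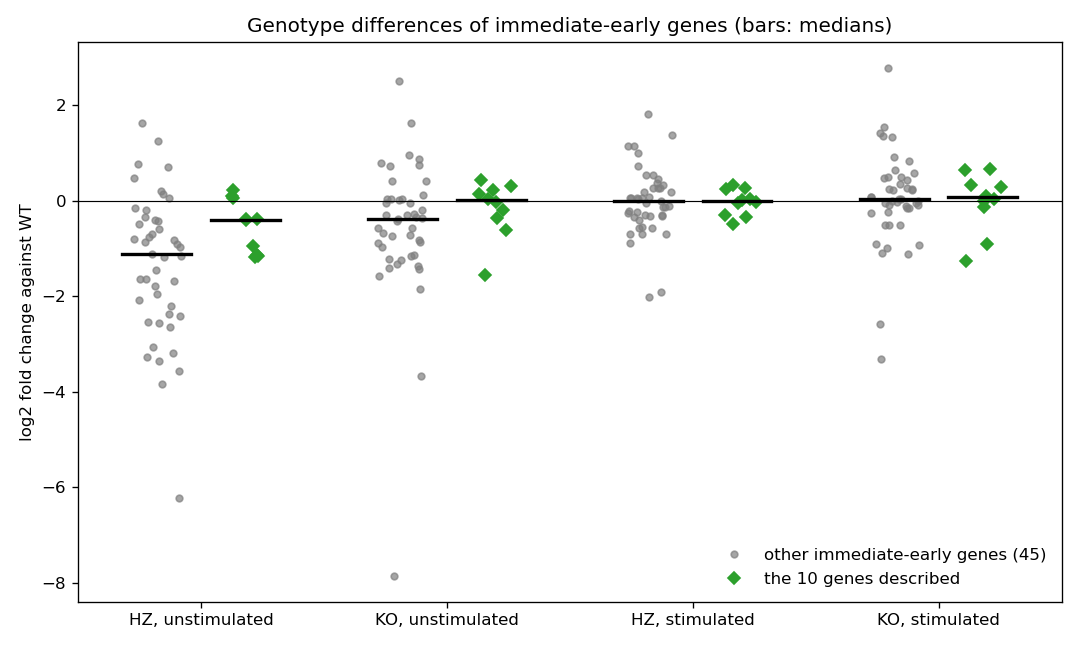
Genotype differences from WT as log2 fold change for 45 other immediate-early genes (grey points) and the 10 genes described (green diamonds), before and after stimulation; black bars are medians and points are spread sideways for visibility. The grey median is -1.10 in unstimulated HZ and 0.00 in stimulated HZ; the lowest point, *Plk2* at -7.86 in unstimulated KO, was at 0 counts in both KO libraries, so that its fitted value is no bound.

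Relatives and partners of the 10 genes were examined as families. In the BTG and TOB family *Tob2*, another antiproliferative cofactor, rose in HZ (2.17; edgeR adjusted p = 1.32e-42) and KO (2.06; edgeR adjusted p = 7.16e-42), and *Btg1* rose by 1.01 and 1.196, while *Btg3* (0.71 and 0.60) and *Tob1* (0.72 and 0.42) stayed under 2-fold. Of the other GADD45 genes *Gadd45g* rose by 1.08 in HZ and stood at 0.15 in KO, and *Gadd45a* was at -0.29 and 0.26. Among 7 tested partners of *Maff*, the erythroid and megakaryocytic factor *Nfe2* fell in HZ (-2.28) and KO (-2.16), the antioxidant regulator *Nfe2l2* rose in KO (1.01), and *Mafg* and *Mafk* did not pass the thresholds in either.

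*Homer2* and *Homer3* did not pass after stimulation in HZ (0.13 and 0.04) or KO (-0.12 and 0.04), but *Homer2* was higher in unstimulated KO than in WT (1.46; edgeR adjusted p = 8.54e-17). *Arl5a* fell in HZ (-1.17; edgeR adjusted p = 2.17e-26) where *Arl5b* rose, and the 4 subunits of the GARP tethering complex on which ARL5 proteins act did not pass in HZ or KO. Of the relatives of *Jrk*, 6 of which were tested, *Tigd5*, another transposase-derived gene, fell in HZ (-4.40) and KO (-2.65), from 102 and 65 counts to 1 and 6 in HZ. *Ier5l* and *Ier3ip1*, which share only part of a name or of their sequence with the members, did not pass.

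The study's list of ternary complex factor targets held 68 tested genes. *Arc*, *Arl5b*, *Homer1*, *Ier2* and *Jrk* are 5 of them and were taken from it for their change in these libraries. Of the other 63, 9 rose and 0 fell in HZ, and 8 rose and 1 fell in KO, beside the shares of all genes given above for these responses. In unstimulated KO against WT 4 of the 63 were lower and 0 higher, beside 4.87% and 2.64% of all genes, and in stimulated KO 1 was lower and 2 higher, beside 7.22% and 5.44%. Nothing particular to the list is read from these counts. None of the ternary complex factor genes *Elk1*, *Elk3* and *Elk4*, nor *Srf*, passed the thresholds after stimulation in HZ or KO, and the SRF cofactor gene *Mrtfa* fell in HZ (-1.66) and KO (-1.04).

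Across the 12 libraries the log2 levels of the 9 genes higher after stimulation had Pearson correlations between 0.830 and 0.995 with each other, and *Jrk* had -0.940 to -0.835 with them. These describe 12 libraries that fall into stimulated and unstimulated sets, which alone gives high values. Among the 9858 genes that averaged 100 counts or more, *Fos* had the level most like *Ier2* (0.999), *Mcl1* like *Arl5b* (0.999), *Csf2* like *Ier3* (0.998) and *Tiparp* like *Ier5* (0.998). *Lbh* was closest to *Gadd45b* (0.997), *Prkd2* to *Btg2* (0.996), *Abl2* to *Maff* (0.993), *Nfkb2* to *Homer1* (0.986), *Lap3* to *Arc* (0.983) and *Tceanc* to *Jrk* (0.968).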

How the data were processed

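RNA from 12 BMMC libraries was sequenced, with 2 libraries in each of 6 groups of genotype and stimulation, grouped by the labels. The authors deposited raw counts per gene and FPKM values. The submitters' processing notes name fastp, HISAT2, HTSeq and the build GRCm39, without versions; annotation, strand setting and the FPKM formula are not given in the sources used here. Without strand, reads of a gene and of an overlapping gene on the other strand cannot be told apart. The counts also do not separate isoforms.

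The members and all gene lists were chosen with earlier results of these data known. Counts were fitted with edgeR 4.0.16 in R 4.3.3 (TMM scaling, quasi-likelihood test, all 12 libraries in one model of the 6 groups). Of 16234 genes, 12208 passed the filter filterByExpr (minimum count 10), and p-values were adjusted over these by the Benjamini-Hochberg method. The model had 6 residual degrees of freedom and a biological coefficient of variation of 4.01%. The spread of each gene was moderated towards that of all genes, with a median of 38.9 prior degrees of freedom. The p-values therefore rest largely on a spread shared across genes. Totals ran from 29697958 to 35531667 counts, so that genes such as *Arc*, with fewer than 10 counts in each unstimulated library, were measured with large counting error. CPM values are edgeR's, scaled by TMM. Each standard error (SE) was derived as the absolute log2 fold change divided by the square root of the F value of the edgeR test. It is not the spread of the 2 libraries of a group.

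Named by rule were all 10 members, *Elk4*, up to 3 genes of each list with the largest change among those called, any gene of a family list, and for likeness up to 3 genes a member, of which the first is given, with the highest Pearson correlation of log2 CPM (prior count 2, mean count of at least 100). Alternatives were DESeq2 1.42.0, limma 3.58.1 on log2(FPKM + 1) and log2(FPKM + 0.1), other scalings, filters and fold thresholds, only the groups compared, a replicate block, and each library left out. Promoters came from RefSeq (GRCm38.p6) and transcripts from GENCODE vM21. *Dusp2*, *Nfkbia*, *Klf10*, *Plk2*, *Srf* and the marker *F13a1* were named after their values were seen.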

Additional observations from a re-analysis of the deposited data

Results flagged for a closer look

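For 13 responses of single genes, the change after stimulation differed between genotypes in the interaction term of edgeR across all 12208 genes (log2 scale, 2 libraries a group). The 9 against WT contain the WT response by which the genes were chosen and are given as values only. Larger in KO than in WT were the responses of *Ier2* by 0.617, *Btg2* by 0.641 and *Arl5b* by 0.416. Larger in HZ than in WT were those of *Ier2* by 1.516, *Maff* by 1.405, *Ier5* by 1.192, *Btg2* by 0.456, *Arl5b* by 0.351 and *Ier3* by 0.157. The difference KO minus HZ was -1.127 for *Ier5* (edgeR adjusted p = 1.88e-24), -1.061 for *Maff* (edgeR adjusted p = 9.09e-07), -0.900 for *Ier2* (edgeR adjusted p = 1.47e-22) and -0.0968 for *Ier3* (edgeR adjusted p = 0.0183). The comparisons share libraries in pairs, so the 3 values of one gene are not independent. The 2 values of *Btg2* against WT were not called by DESeq2 or limma.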

How the results depend on the processing

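The number of the 10 genes past the thresholds depended most on the fold threshold. Without one, the count went from 1 to 5 in unstimulated KO against WT, from 3 to 7 in unstimulated HZ against WT and from 1 to 7 in unstimulated KO against HZ. After stimulation it went from 3 to 6 in KO against WT, from 0 to 5 in HZ against WT and from 2 to 8 in KO against HZ. A 2-fold threshold after stimulation gave 0 in KO against WT and 0 in KO against HZ. limma on log2(FPKM + 1), with and without a filter, gave 0 in unstimulated KO against WT and 0 in unstimulated KO against HZ, a scale that understates changes of low genes. With the WT response and *Arc* left aside, it put *Homer1* and *Jrk* under 2-fold after stimulation in HZ and KO. In stimulated KO against HZ it gave 1, as did limma on log2(FPKM + 0.1) and library totals.

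Leaving out each library in turn kept the direction of all 10 responses in WT, HZ and KO, a description only for WT and for *Arc*. For unstimulated cells it gave 1 in KO against WT, 2 to 4 in HZ against WT and 1 to 2 in KO against HZ, where 2 came without unstimulated KO replicate 1. For stimulated cells it gave 3, 0 and 2 in the same order, and for the difference in response 2 to 3 in KO against WT, 5 to 6 in HZ against WT and 3 to 5 in KO against HZ. In KO minus HZ the *Btg2* response passed only without unstimulated KO replicate 1 (0.58), and its left-out values ran from -0.11 to 0.58. The *Ier3* difference there was lost with DESeq2 size factors in edgeR (-0.08; edgeR adjusted p = 0.0611). The lone library left in a group is assumed to vary like the other groups.

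Same-numbered libraries of a genotype had deviations from their group means with correlations of -0.0226 in WT, 0.0629 in HZ and -0.0207 in KO over 9858 genes. Such values do not tell whether same-numbered libraries came from the same mouse or culture. Fitting the replicate block gave 1, 3 and 1 in unstimulated cells, 3, 0 and 2 in stimulated cells and 4 for the response in KO minus HZ, as without it. The counts for the responses and for the response differences from WT were also unchanged. They hold the contrast that chose the genes, or *Arc*, and are a description. Over single genes, 2001 values were recomputed. Outside the WT response, 46 lost and 34 gained a call. The WT response, which was not tested, had 39 values that moved by more than the spread between replicates. None was reversed with an adjusted p below 0.05, and 46 values changed sign, none with an adjusted p below 0.5005. Counts of *Arc* and *Jrk* limit what can be seen of these genes.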
